A study of Caenorhabditis elegans with 2 samples.

Results

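Peaks of NFYA-1 that lay in intergenic DNA and far from the start of any protein-coding gene are described here, for whole third-stage (L3) hermaphrodite larvae of Caenorhabditis elegans. A peak was taken when its summit, the position of highest signal, lay in no annotated gene other than a piRNA gene and more than 2000 bp from the start of every protein-coding gene. The authors' list of reproducible peaks, set by irreproducible discovery rate (IDR), has 6932 entries, of which 943 met both conditions (13.6%, 95% Wilson interval 12.8 to 14.4), and they are called distal peaks. They made up 23.6% of the 3988 peaks with an intergenic summit. The animals were of strain OP404, which carries the unc-119(tm4063) III allele and the integrated transgene wgIs404 for NFYA-1 with GFP and FLAG at its C terminus. Antibodies to GFP precipitated the sonicated chromatin of whole animals, so binding in different tissues cannot be separated. The 2 libraries are biological replicates of 1 group, per the labels. Chromatin of untagged animals was not analysed here, and the peak lists do not give the depth of sequencing. Regions of 1 pair of libraries are not replicates of a condition, so no test was made between kinds of region, and intervals cover counting error only.

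NFYA-1 is the A subunit of NF-Y, a trimer in which a pair of histone-fold subunits and the A subunit together recognise the CCAAT box and bend the DNA. The worm genome is compact, and most genes lie close to their neighbours. Long intergenic stretches are known to hold enhancers of developmental genes, noncoding RNA genes and dispersed repeats. In C. elegans, NF-Y has been described as a repressor of the Hox gene egl-5.

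The windows that best show CCAAT boxes far from protein-coding starts came from a dispersed family of related windows. Each of the first 5 windows is the plus strand of the WBcel235 assembly (ce11) from 50 bp before to 50 bp after a summit, with CCAAT or its reverse complement in capitals. They share stretches of 20 bp or more, within 100 bp of the summit, with other distal peaks, and each holds several boxes at similar spacing. The last 2 windows hold boxes but share no such stretch with another distal peak. The window between Y41D4B.15 and npp-8 does carry shorter runs of the family, such as gaCCAATcagcgat, also present in the windows beside F48E8.2 and sup-26. Outside the family therefore means only that no stretch of 20 bp is shared.
chrII:3930637-3930737, beside plpp-1.1: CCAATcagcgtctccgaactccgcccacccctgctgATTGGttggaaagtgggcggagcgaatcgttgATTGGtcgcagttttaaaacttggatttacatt
chrIV:5715853-5715953, beside C55C3.1: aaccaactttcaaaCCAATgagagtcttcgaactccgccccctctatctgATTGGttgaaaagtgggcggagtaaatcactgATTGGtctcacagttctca
chrIII:5469248-5469348, beside F48E8.2: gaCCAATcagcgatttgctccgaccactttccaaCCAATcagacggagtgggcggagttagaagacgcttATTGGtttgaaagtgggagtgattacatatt
chrIII:4275833-4275933, beside sup-26: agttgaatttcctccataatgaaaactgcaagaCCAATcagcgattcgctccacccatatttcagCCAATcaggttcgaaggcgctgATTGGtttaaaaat
chrIII:7823443-7823543, between egl-5 and egl-45: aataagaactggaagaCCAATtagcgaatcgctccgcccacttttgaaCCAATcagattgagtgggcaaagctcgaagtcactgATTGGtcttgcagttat
chrIV:1567733-1567833, between Y41D4B.15 and npp-8, outside the family: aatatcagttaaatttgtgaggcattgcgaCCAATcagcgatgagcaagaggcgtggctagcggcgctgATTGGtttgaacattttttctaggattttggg
chrX:10597795-10597895, outside the family: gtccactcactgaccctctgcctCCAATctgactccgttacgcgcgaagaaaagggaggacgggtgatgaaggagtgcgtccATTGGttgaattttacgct

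More distal peaks carried GAGAGA than CCAAT within 50 bp of the summit, and some of the strongest carried neither. In the next 3 windows, given in the same way, GAGAGA is in capitals, as is a second motif, GACGCAG, each on either strand. The last 2 windows are those of the strongest and the second strongest distal peak, in which no CCAAT and neither of the GA motifs occurred. The strongest peak did have 1 CCAAT box within 100 bp of its summit, and the window of the second strongest holds the similar AGAGAG.
chrIII:8461555-8461655, beside mig-39: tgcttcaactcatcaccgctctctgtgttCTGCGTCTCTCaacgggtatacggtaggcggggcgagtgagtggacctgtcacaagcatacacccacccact
chrIII:8412148-8412248, beside ZK353.9: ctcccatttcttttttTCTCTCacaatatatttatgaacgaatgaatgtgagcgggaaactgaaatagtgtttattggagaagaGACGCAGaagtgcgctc
chrIII:12583638-12583738, beside aakg-1: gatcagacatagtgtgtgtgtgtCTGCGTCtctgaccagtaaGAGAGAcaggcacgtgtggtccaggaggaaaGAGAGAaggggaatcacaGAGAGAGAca
chrIV:15571014-15571114, strongest distal peak: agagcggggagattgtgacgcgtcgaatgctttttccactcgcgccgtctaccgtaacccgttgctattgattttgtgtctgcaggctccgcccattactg
chrV:14364673-14364773, upstream of mir-48: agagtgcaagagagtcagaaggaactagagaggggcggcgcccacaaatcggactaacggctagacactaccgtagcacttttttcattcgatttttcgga

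The strongest distal peak ran from 15570666 to 15571276 on chromosome IV, with its summit at 15571064. It lay between Y105C5A.1 (WBGene00013632), whose start was 6637 bp away, and pqn-76 (WBGene00004158), a gene for a glutamine- and asparagine-rich protein, 8022 bp away on the other side. Its signal, the authors' own value on a scale the files do not state, was 2748, and it ranked 13 among all IDR peaks, 15 in replicate 1 and 11 in replicate 2. The next, with its summit at 14364723 on chromosome V, had a signal of 1760 and ranked 22 among all, 25 in replicate 1 and 20 in replicate 2. It lay 8351 bp upstream of unc-39 (WBGene00006775), a Six-family homeobox gene. That summit was also 214 bp upstream of mir-48 (WBGene00003039), a let-7-family microRNA gene that times larval development. Both peaks were therefore near the top of each library.

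Of the 12 strongest distal peaks, 8 had a CCAAT within 50 bp of the summit, 4 had the extended CCAAT motif (a CCAAT with preferred flanking bases), and 6 had GAGAGA or GACGCAG. The summit at 8461605 on chromosome III (signal 1167, rank 37, 45 in replicate 1 and 30 in replicate 2) lay 5430 bp upstream of mig-39. The summit at 3930687 on chromosome II (signal 1116, rank 41, 47 in replicate 1 and 40 in replicate 2) lay 2694 bp upstream of plpp-1.1, a phospholipid phosphatase gene. With 3 CCAAT boxes within 100 bp of the summit, it was the strongest of the dispersed family. On chromosome III, the summit at 8412198 (signal 1089, rank 47, 42 in replicate 1 and 64 in replicate 2) lay 181 bp beyond the 3′ end of ZK353.9. It was also 5970 bp upstream of sor-1, a gene involved in Hox repression. The summit at 1436939 on the same chromosome (signal 1073, rank 52, 61 in replicate 1 and 43 in replicate 2) was 9713 bp from the nearest start, that of lelo-2. On chromosome X the strongest distal peak (1871176, signal 859, rank 95, 141 in replicate 1 and 54 in replicate 2) lay 4538 bp beyond the 3′ end of the T-box gene tbx-41 and held GAGAGA. The others of the 12 ranked 42 to 91, and their neighbours included the ubiquitin protease gene usp-5, the ARID transcription factor gene cfi-1, the AMP-kinase subunit gene aakg-1 and the body-size gene lon-1.

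At the other extreme stood the summit farthest from any start, at 6704799 on chromosome IV, 35491 bp from that of Y73B6A.3. Its signal was 63.9 and its rank 6014, with ranks of 8803 in replicate 1 and 4626 in replicate 2. The distance to the nearest protein-coding start had a median of 3611 bp, with quartiles of 2671.5 and 5240.5 bp. It exceeded 5 kb at 255 peaks and 10 kb at 34. Far from a start did not mean far from a gene: no gene of any kind other than a piRNA gene lay within 2000 bp of 383 summits (40.6%, interval 37.5 to 43.8), and the nearest one was a median of 1490 bp away. The boxed summit at 1567783 on chromosome IV, for example, stood 67 bp beyond the 3′ end of Y41D4B.15 and 138 bp beyond that of npp-8, a nucleoporin gene. The 3 distal peaks nearest to the limit were 2002, 2004 and 2005 bp from a start and ranked 6397, 6859 and 3055. The 3 intergenic peaks just inside it, at 2000, 1999 and 1998 bp, ranked 6426, 6852 and 5773.

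Distal peaks were weaker than the list as a whole. They were 13 of its 100 strongest peaks (interval 7.76 to 21.0%), near their share of 13.6% of the whole list. Their signal ranged from 53.6 to 2748 with a median of 102, against a median of 121 over all IDR peaks. The median rank was 4081 (quartiles 2241.5 and 5550) for distal peaks, against 2977 (1451 and 4705) for the 3045 other intergenic peaks and 3466.5 for the whole list. Split by signal into 5 bins of 1386 or 1387 peaks, the list held 140 distal peaks in its strongest bin (10.1%, interval 8.62 to 11.8), and then 169, 170, 228 and 236 (17.03%, interval 15.1 to 19.1) in the weakest. Of the pooled list of 30000 relaxed regions, which includes background, 23.1% were in the IDR list. Among the 5154 relaxed regions that met the position rule, the share was 18.3% (interval 17.3 to 19.4), against 24.1% (23.6 to 24.6) of the other 24846.

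Most distal peaks were found in both libraries. The IDR list was itself derived from these 2 libraries as the peaks reproducible between them. High overlap and correlation are therefore partly fixed in advance, and the comparison with all IDR peaks is the more informative one. A region overlapped by at least 1 bp was among the 6932 strongest of replicate 1 for 839 distal peaks (89.0%) and of replicate 2 for 811. Over all IDR peaks the shares were 91.8% for replicate 1 and 88.8% for replicate 2. Such a region was among the strongest of both for 721 distal peaks (76.5%, interval 73.6 to 79.1), against 82.4% (81.4 to 83.3) of the other IDR peaks and 81.5% of all of them. Some region of the relaxed list was overlapped at 939 distal peaks in replicate 1 and at 940 in replicate 2. Across the 936 distal peaks with a region in each library, the Spearman correlation of signal was 0.80. Over the 6837 of all 6932 IDR peaks with such regions it was 0.86. These values describe regions that share both libraries. Strength and reproducibility differed by motif. With the extended CCAAT motif 99 of 109 distal peaks were among the strongest of both libraries (90.8%, interval 83.9 to 94.9). The share was 79.9% of 374 with GAGAGA or GACGCAG but no extended motif, and 70.2% of 460 with none of these. The median ranks of the groups ran in the same order, 2390, 3721 and 4637, and how far rank accounts for the difference in reproducibility was not tested.

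**Figure D1:**
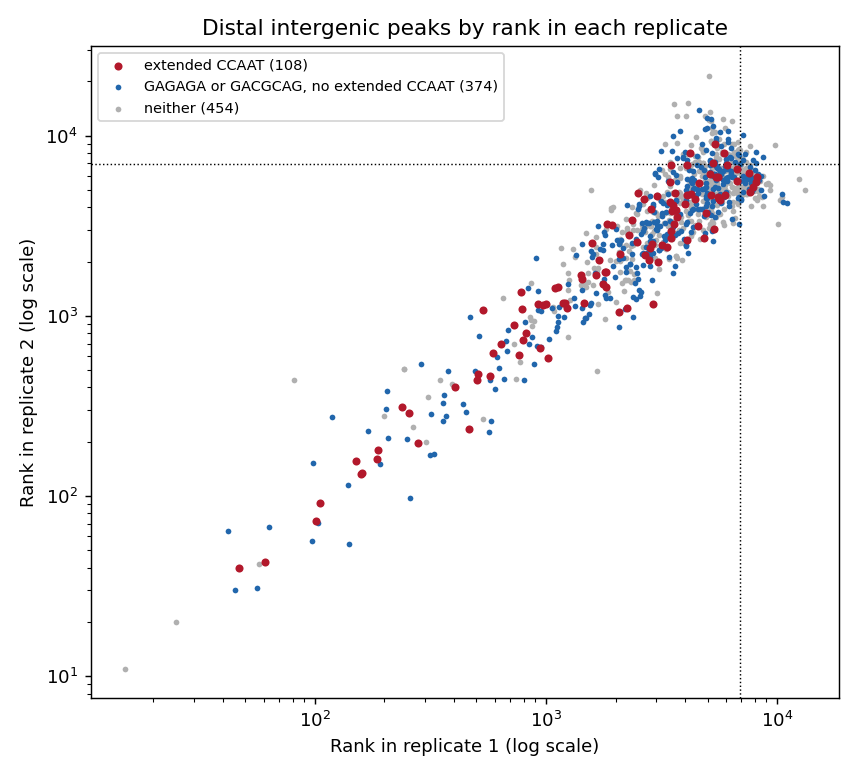
Rank of each distal peak in replicate 1 (x axis) and replicate 2 (y axis), both on log scales, for the 936 peaks with a region in each library. Colours mark 108 peaks with the extended CCAAT motif, 374 with GAGAGA or GACGCAG but no extended motif, and 454 with none of these, and the dotted lines stand at rank 6932. The strongest peaks lie near the diagonal, and the spread widens towards rank 6932, where most peaks outside the top of 1 library stand.

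CCAAT itself was only moderately more common at distal summits than beside them, while its extended form was concentrated there. CCAAT occurred within 50 bp of 278 distal summits (29.5%, interval 26.7 to 32.5), against 27.6% of all IDR summits. Windows of the same length 300 bp to either side of the distal summits held it in 18.7%. Eligible sequence, meaning every position that meets the position rule, came to 14.4 Mb (14.4% of the nuclear genome), and 18.9% of its 139101 windows of that length held a CCAAT. The extended motif was CCAAT preceded by a pair of purines and followed by C or G and then a purine, on either strand. It occurred at 109 distal summits (11.6%, interval 9.67 to 13.8), 11.1% of all IDR summits, 1.01% of the flanks and 0.812% of eligible windows. Distal summits were richer in G and C than their flanks (45.8% against 33.8%). Among the 22171 eligible windows with a G and C content between the quartiles of the distal summits, 1.45% held the extended motif and 20.2% held a CCAAT.

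GA repeats were the most frequent of the sequences sought. GAGAGA occurred at 331 distal summits (35.1%, interval 32.1 to 38.2), against 28.4% (27.3 to 29.4) of all IDR summits, 6.42% of the flanks, 5.20% of eligible windows and 9.70% of eligible windows of like G and C content. GACGCAG, which can share its first 2 bases with the end of a GAGAGA, occurred at 114 distal summits (12.1%), 11.1% of all IDR summits, 0.901% of the flanks, 0.732% of eligible windows and 2.15% of those of like G and C content. Of all 2080 6-mers, counted with their reverse complements, GAGAGA had the largest excess over the flanks. The first 10 by that measure were GA-rich on either strand, and most overlap GAGAGA by several bases. AGAGAG, which came second, was present at 31.0% of distal summits and 5.41% of flanks, and CGTCTC, the reverse complement of GAGACG, at 18.8% and 2.70%. CCAATC came 13th, at 16.6% and 3.34%. Peaks with either of GAGAGA and GACGCAG numbered 383 (40.6%). They were 9 of the 109 with the extended CCAAT motif (8.26%, interval 4.40 to 14.95) and 374 of the 834 without it (44.8%, interval 41.5 to 48.2). Neither kind of motif was present at 460 distal summits (48.8%). GCGCGC was found at 3.29% of distal summits, against 5.84% of all IDR summits and 0.666% of eligible windows. CACGTG was found at 4.56%, against 3.85% of all IDR summits and 1.31% of eligible windows.

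**Figure D2:**
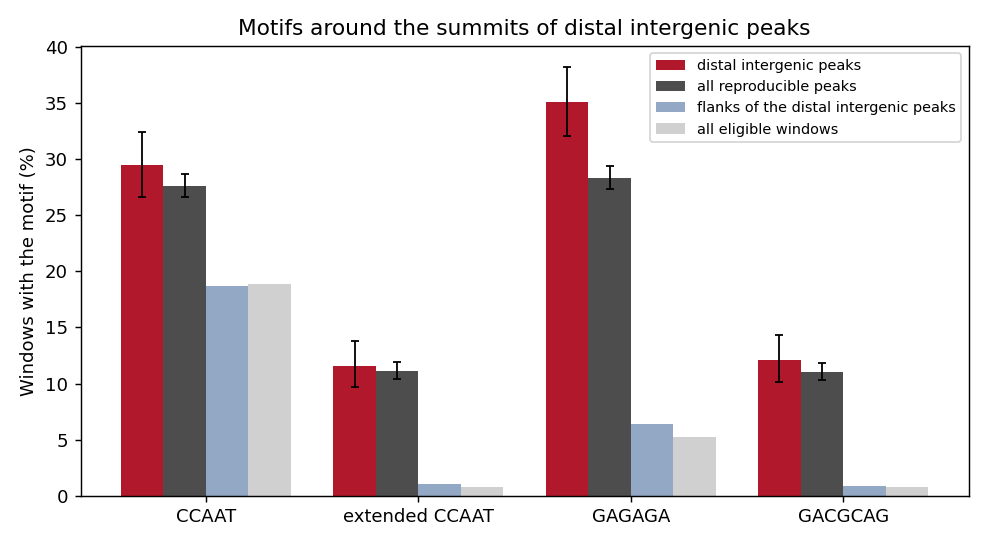
Share of windows 50 bp to either side of a centre (y axis, in percent) that hold each motif on either strand, for distal intergenic summits, all reproducible (IDR) summits, flanks 300 bp from the distal summits and all eligible windows. Error bars on the 2 sets of summits are 95% Wilson intervals; the extended CCAAT motif stood at 11.6% of distal summits and 1.01% of flanks, and GAGAGA at 35.1% and 6.42%.

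The motifs differed in how tightly they were placed and in how they followed peak strength. Copies of the extended CCAAT motif within 100 bp of a distal summit lay at a median of 21 bp from it (211 copies), those of GACGCAG at 27.5 bp (166 copies) and those of GAGAGA at 45.5 bp (1378 copies, overlapping ones counted separately). In 4 bins of nearly equal size, from the strongest distal peaks to the weakest, 21.6%, 12.3%, 7.23% and 5.08% held the extended motif. GACGCAG was held by 19.1%, 12.3%, 10.2% and 6.78%, and GAGAGA by 45.3%, 31.8%, 31.9% and 31.4%. The mean G and C content of the summits was 49.2%, 46.4%, 44.5% and 43.2% in the same bins, and its part in these trends was not tested. At the 255 peaks more than 5 kb from a start the extended motif was held by 18.8% (interval 14.5 to 24.1), against 8.87% (6.96 to 11.2) of the 688 nearer ones.

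**Figure D3:**
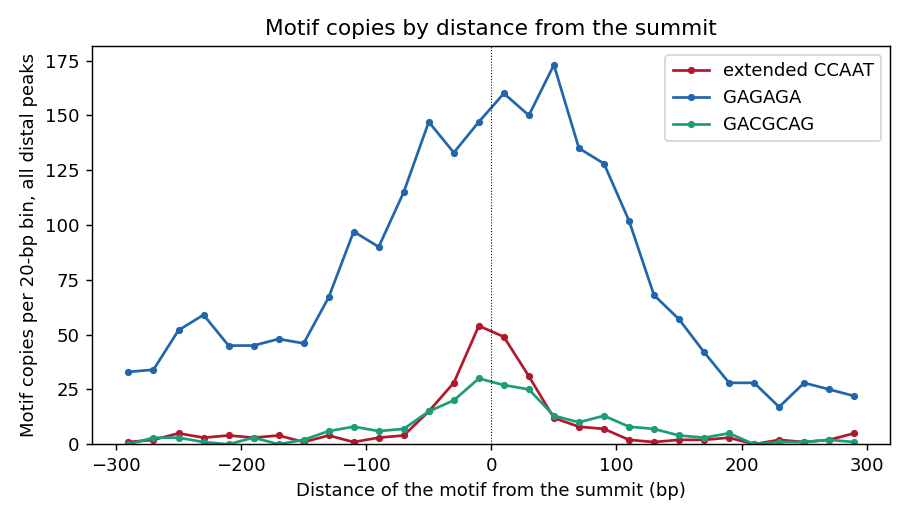
Copies of each motif per 20-bp bin (y axis) by distance from the summit in bp (x axis), summed over all distal peaks. The extended CCAAT motif and GACGCAG peak in the bins next to the summit, with up to 54 and 30 copies, and GAGAGA forms a broad plateau with up to 173.

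Distal peaks with an array of CCAAT boxes ranked high, although most strong distal peaks had none. Within 100 bp of the summit, 60 distal peaks (6.36%, interval 4.97 to 8.10) held 3 or more boxes, against 6.39% of all IDR peaks and 1.71% of eligible windows of that length. Their median rank was 1724.5, against 4157 for the 544 peaks with no box. Peaks with 1 box (250) or 2 boxes (89) were no stronger than those with none, with median ranks of 4351.5 and 4214. The peaks with 3 or more boxes supplied 4 of the 12 and 22 of the 100 strongest distal peaks. The spacing between adjacent boxes was examined after these counts were seen. Of 109 adjacent pairs on the same strand, 48 (44.0%) stood 31 to 33 bp apart, the commonest distance being 32 bp. In all eligible windows 6.01% of 4790 such pairs did. Pairs that faced each other were most often 39 bp apart, and 26 of 94 (27.7%) stood within 1 bp of that distance, against 3.65% of 1371 in eligible windows. The 45 pairs that faced away from each other had no common distance, with a median of 43 bp. Both 32 and 39 bp were picked as the commonest distances of these same pairs, which partly fixes their excess over eligible windows. A peak with several boxes also gave several pairs, and the 109 same-strand pairs came from 84 peaks.

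Part of these arrays belonged to peaks that shared sequence with each other. Distal peaks were joined into families when they shared any 20-mer within 100 bp of their summits, which placed 117 of them in 23 families. The largest family, which includes the first 5 windows shown, had 31 members, all with the extended motif, and 25 of them held 3 or more boxes. Also in this family, 24 held GGGCGG, a sequence sought after the windows were seen. That hexamer stood at 10.2% of all distal summits, 11.9% of all IDR summits, 1.61% of eligible windows and 4.42% of those of like G and C content. Ranks in the family ran from 41 to 6307 with a median of 1457. Among the strongest of both libraries were 27 of 31, against 76.5% of all distal peaks and 90.8% of those with the extended motif. A set of 31 is too small to tell its share from either. Outside the family, 15 of 66 same-strand pairs stood 31 to 33 bp apart, in 13 peaks, and all 26 of the facing pairs within 1 bp of 39 bp came from outside it. Outside means only that no 20-mer was shared, and looser likeness of these peaks to the family was not tested.

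Across the genome, 323 loci held at least 1 of the 146 20-mers that 2 or more members of this family shared. Of these, 39 were centred on eligible sequence and 31 of them overlapped an IDR peak, which the choice of the 20-mers from bound windows partly fixes. Of the 284 loci centred elsewhere, 226 overlapped an IDR peak (79.6%, interval 74.5 to 83.9). Counting all 323 loci, 179 of 211 with 3 or more boxes overlapped one (84.8%), as did 73 of 95 with 2 boxes (76.8%) and 5 of 17 with fewer (29.4%, interval 13.3 to 53.1). These counts include the 39 eligible loci, with 25 of 28 of those with 3 or more boxes, and are partly fixed in the same way. Sequence with as many boxes but none of these 20-mers was not compared, so the shares cannot be assigned to the family. Chromosome X held 2 of the loci and neither overlapped an IDR peak, although both overlapped a relaxed region.

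The next family in size was rich in GA repeats. It had 28 members, 26 with GAGAGA and none with the extended motif, at ranks 247 to 6846. Its strongest summit, at 10720383 on chromosome III (signal 598, 316 in replicate 1 and 169 in replicate 2), lay between W09D10.4 and tat-3. Another of its members lay 4983 bp from rpl-21, a cytosolic ribosomal protein gene, with rank 630, 467 in replicate 1 and 983 in replicate 2. Another family had 10 members, at ranks 575 to 6779, and its strongest lay 2545 bp upstream of hda-4, a class IIa histone deacetylase gene. Sequence repeated for most of its length was rare among distal peaks. At least 50% of the 20-mers around the summit occurred elsewhere in the genome for 10 of them (1.06%, interval 0.577 to 1.94), against 3.42% of all IDR peaks and 19.6% of eligible windows. Reads of repeated sequence may map to several places, and how far this lowered the number of peaks called there was not tested. Such sequence was kept in the eligible sequence used for densities. At least 1 repeated 20-mer was present at 65.1% (interval 55.8 to 73.4) of the distal peaks with the extended motif and at 28.5% (25.6 to 31.7) of the others, against 38.7% of all IDR peaks and 58.5% of eligible windows.

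Distal peaks were spread over every chromosome, at 65.5 per Mb of eligible sequence (exact Poisson interval 61.4 to 69.8), against 69.1 per Mb (67.5 to 70.8) for all IDR peaks over the nuclear genome and 159 per Mb for the other intergenic peaks over the rest of intergenic sequence. Chromosome I had the highest density, with 165 peaks at 99.6 per Mb (85.0 to 116). Chromosome III followed with 158 at 93.0 (79.0 to 109) and II with 131 at 68.5 (57.2 to 81.2). The density was 58.6 on X (206 peaks, 50.9 to 67.2), 54.4 on IV (174 peaks, 46.6 to 63.1) and 45.2 on V (109 peaks, 37.1 to 54.5). In this order of densities the intervals of neighbouring chromosomes overlapped throughout, whereas those of I and II did not overlap, nor did those of III and X. Over all IDR peaks per Mb of chromosome, III stood highest at 99.2 and V lowest at 47.9.

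Chromosome X differed from the autosomes in the motif its distal peaks held. The extended CCAAT motif was present at 10 of 206 on X (4.85%, interval 2.66 to 8.70), against 99 of 737 on the autosomes (13.4%, interval 11.2 to 16.1). In eligible windows the shares were 0.678% on X and 0.856% on the autosomes, and over all IDR summits 3.98% and 12.6%. GAGAGA was held by 25.2% (19.8 to 31.6) of distal summits on X and by 37.9% (34.4 to 41.4) on the autosomes. None of the 31 members of the largest family lay on X.

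Within chromosomes, distal peaks were denser in the central parts. Arms were taken as the outer 30% at each end of a chromosome. They held 531 distal peaks (56.3%, interval 53.1 to 59.4), 52.3% of all IDR peaks and 62.9% of eligible sequence. That came to 58.6 per Mb (53.7 to 63.8) on arms and 77.2 per Mb (69.9 to 85.0) in centres. The density was higher in the centre on all 6 chromosomes, with intervals that overlapped on each one. The difference was smallest on X (57.5 on its arms and 60.8 in its centre) and larger on IV (47.3 and 70.4). Of the 100 peaks with the extended CCAAT motif and no GA motif, 72.0% lay on arms (interval 62.5 to 79.9, which includes the eligible share).

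**Figure D4:**
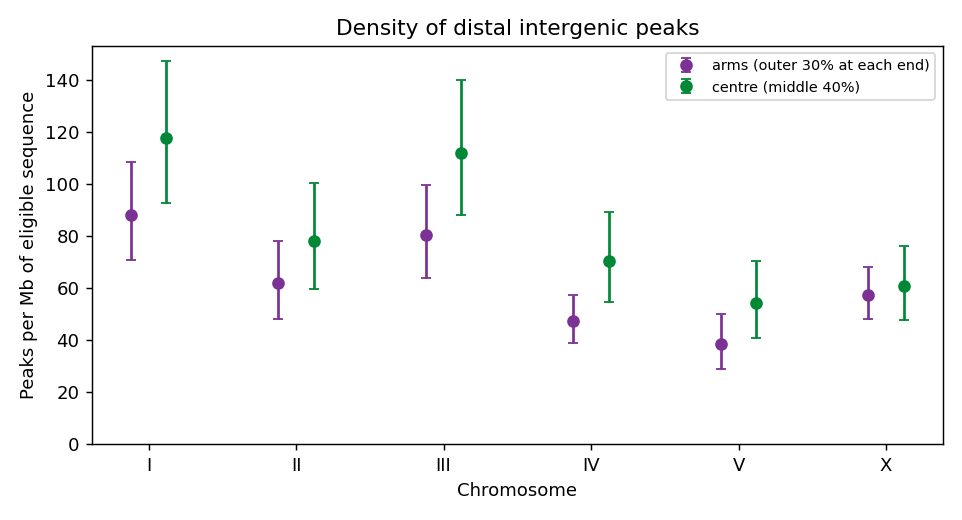
Distal peaks per Mb of eligible sequence (y axis) on the arms and in the centre of each chromosome (x axis), with exact 95% Poisson intervals as bars. The centre stands above the arms on all 6 chromosomes with overlapping intervals, for example at 60.8 against 57.5 per Mb on X and 118 against 88.2 on I.

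Distal peaks often stood close to one another. Another distal peak lay within 5 kb of 458 of them (48.6%, interval 45.4 to 51.8), and some other IDR peak within 5 kb of 713 (75.6%). Over the whole list, 67.5% of all IDR peaks had another IDR peak within that distance, a share like in kind to the 75.6% but not to the 48.6%. The share with a distal neighbour at a uniform density over eligible sequence was not computed. Joined at 5 kb, the distal peaks formed 669 groups, of which 485 held a single peak, 128 a pair and 8 groups held 5 to 7. The largest group held 7 summits between 6249045 and 6256635 on chromosome X, between got-2.2, an aspartate aminotransferase gene, and W05H9.4. Its ranks were modest, from 2343 to 6483, and 1 of its summits held the extended motif. Few of these were split summits of 1 region, since 14 distal peaks (1.48%) overlapped or touched the region of another. Uninterrupted stretches of eligible sequence with a distal peak had a median length of 3069 bp, against 896 bp for those without. A longer stretch has more room for a peak, so a difference in this direction would arise even at a uniform density.

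The genes beside the peaks lay far apart, with a median of 9085 bp between the flanking protein-coding genes. The rule of more than 2000 bp from every start itself favours wide gaps. Between genes that point away from each other there were 319 distal peaks, at 72.0 per Mb of eligible sequence (64.3 to 80.4). Between genes that point the same way there were 540, at 70.4 per Mb (64.6 to 76.6). Between genes that point towards each other there were 84, at 36.9 per Mb (29.4 to 45.7), where the nearest edges of both genes are 3′ ends. The peaks in this last setting were fewer but stronger, with a median rank of 2771.5, against 4617 between genes that point away from each other and 3778.5 between genes in the same direction. One of them, 313 bp beyond the 3′ end of the RNA-binding protein gene sup-26, had a signal of 742 and ranked 138, 158 in replicate 1 and 133 in replicate 2.

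A larger share of homeobox genes than of all genes flanked a distal peak. Of the 8047 protein-coding genes beside eligible sequence, 1250 (15.5%) flanked a distal peak. Among homeobox genes 23 of 65 did (35.4%, interval 24.9 to 47.5), among other listed transcription factor genes 28 of 100 (28.0%, 20.1 to 37.5) and among nuclear receptor genes 30 of 145 (20.7%, 14.9 to 28.0). Chemoreceptor genes, one of the largest worm gene families, did so in 11 of 520 (2.12%, 1.19 to 3.75), F-box genes in 4 of 122 (3.28%), C-type lectin genes in 3 of 77 and neuropeptide genes in 7 of 83 (8.43%). Cuticle collagen genes stood at 7 of 49 (14.3%, 7.10 to 26.7), and ribosomal protein genes at 4 of the 11 that lie beside eligible sequence. Homeobox genes also had more eligible sequence beside them, a median of 5771 bp against 1845 bp over all genes. Counted per Mb of that sequence, peaks beside homeobox genes came to 95.4, beside other transcription factor genes to 107, beside nuclear receptor genes to 88.3 and beside all genes to 65.6. The value was 181 beside the 11 ribosomal protein genes (10 peaks), 51.2 beside collagen genes, 24.5 beside lectin genes, 22.0 beside neuropeptide genes, 19.7 beside chemoreceptor genes and 14.8 beside F-box genes, each peak being counted once for either neighbour.

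**Figure D5:**
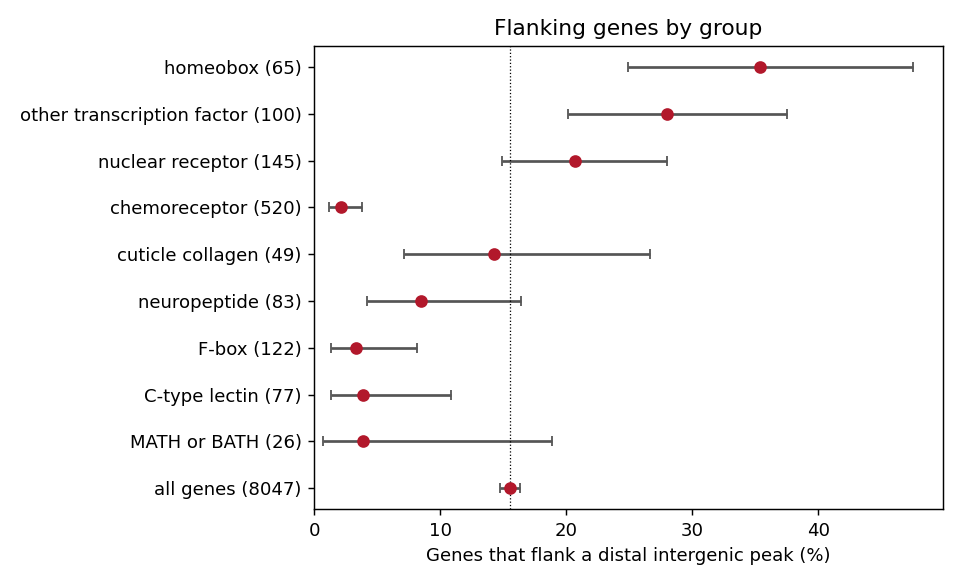
Share of the genes of each group that flank a distal peak (x axis, in percent of the group's genes beside eligible sequence, whose number is in brackets), with 95% Wilson intervals. The dotted line marks all 8047 genes at 15.5%; homeobox genes stand at 35.4% and chemoreceptor genes at 2.12%, and groups with fewer than 20 such genes are not drawn.

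Hox genes of chromosome III were among these neighbours. The Hox genes ceh-13, lin-39, mab-5 and egl-5, which set identity along the body axis, flanked 12 distal peaks, a set named after its values were seen. Among the strongest of both libraries were 11 of these, against 76.5% of all distal peaks and 81.5% of all IDR peaks. A set of 12 is too small to tell its share from those. The summit at 7823493, whose window is shown with the CCAAT arrays, lay 6352 bp beyond the 3′ end of egl-5, an Abdominal-B homologue, and 884 bp beyond that of egl-45. Its signal was 741 and it ranked 139, 160 in replicate 1 and 134 in replicate 2, with 3 CCAAT boxes. The summit at 7792416, 8962 bp from mab-5 and 1030 bp from cyk-7, had a signal of 609 and ranked 229, 204 in replicate 1 and 302 in replicate 2, with GAGAGA and no CCAAT box. The strongest beside lin-39 (7527173, rank 1701, 1824 in replicate 1 and 1749 in replicate 2) held both motifs, 1468 bp beyond the gene's 3′ end. The strongest beside ceh-13 lay 77 bp from the gene's 3′ end (7558118) at rank 3118, 2878 in replicate 1 and 3950 in replicate 2, and held neither. The other peaks of this set ranked between 2005 and 6199. Elsewhere on the chromosome, the Hox gene nob-1 had 1 distal peak, 10024 bp away, with rank 4933, 5514 in replicate 1 and 4719 in replicate 2.

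Single genes with the most distal peaks beside them were of several kinds. W05H9.4, got-2.2 and mdl-1, a Mad-like transcription factor gene, each had 7. The genes mxl-3, a Max-like partner gene, zip-7, a bZIP factor gene, and rho-1, on the other side of the same gap as zip-7, each had 6. Genes with 5 included the transcription factor genes egl-27 and tbx-34, and also aakg-1 and snt-1. Whether regulators were more frequent among these genes than among all genes was not tested. In all, 141 genes flanked 3 or more.

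Genes for small noncoding RNAs lay close to some distal peaks, since the rule measured distance only from protein-coding starts. Within 500 bp of a tRNA start there were 29 (3.08%, interval 2.15 to 4.38), against 0.683% of eligible sequence. Of these summits 20 were upstream of the tRNA, and the median distance was 39 bp. The rule excludes summits inside tRNA, snoRNA and other such genes, so the counts upstream, here and below, are partly fixed by it. Within 500 bp of a snoRNA or snRNA start there were 21 (2.23%, interval 1.46 to 3.38), against 0.398% of eligible sequence, with a median rank of 2209. The median distance to the 20 snoRNA starts was 54 bp, with 16 of the summits upstream. Near microRNA starts there were 10 (1.06%, interval 0.577 to 1.94), against 0.398%. After mir-48, whose peak ranked 22, these ranked 2828 or weaker, and included a summit 349 bp upstream of mir-80 (rank 3335, signal 125). CCAAT was held by 5 of the 29 peaks near tRNA starts and 5 of the 20 near snoRNA starts. It stood at 29.5% of all distal summits and 18.9% of eligible windows, and these counts are too small to tell from either share. Near piRNA starts the share went the other way, 6.89% (5.44 to 8.69) of distal peaks against 10.3% of eligible sequence.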

How the data were processed

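Chromatin immunoprecipitation followed by sequencing was done on 2 libraries of 1 group, so no comparison between groups was possible. Per the deposited file descriptions, relaxed lists were called against a control for each replicate and for both together, and the list past the IDR threshold was derived from them. Neither the aligner, the peak caller nor the depth is given in these sources. The signal of each region is the authors' own, on a scale the deposited files do not state, and was used only within a list. The deposited −log10 q value stood at its ceiling at every IDR peak and gave no ranking. The summit was taken from the offset in the deposited lists, on ce11.

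Gene positions came from Ensembl release 115 and sequence from RefSeq, both on WBcel235. Eligible sequence was cut into adjoining windows reaching 50 bp to either side of their centre, or 100 bp for box counts. Flanking genes were the nearest protein-coding gene to either side, grouped by symbol. A member was counted in the top of a replicate when it overlapped 1 of that replicate's 6932 strongest regions by at least 1 bp. Shares carry 95% Wilson intervals and densities exact Poisson intervals.

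The members and lists were chosen with earlier results of these data known. GGGCGG, the box spacings, the loci of the largest family, the sequence beside each gene group, the Hox set, the noncoding neighbours named and the split at chromosome X were chosen after values were seen. Peaks named or summarised by rank are the 12 strongest, the strongest per chromosome, with the extended motif and in each of 3 families, the farthest, those nearest the limit and the densest 10 kb. The work was done in Python 3.11.15 (scipy 1.17.1, pandas 2.3.3, numpy 2.4.6, with plots in matplotlib 3.10.9), and the functions were tested on simulated sequence.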

Additional observations from a re-analysis of the deposited data

How the results depend on the processing

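With the limit at 1000 bp there were 1503 distal peaks and at 5000 bp 255, with densities of 70.7 and 54.2 per Mb and relaxed-list shares of 19.6% and 16.8%. The upper 50% of the IDR list by signal gave 392 peaks, at 27.2 per Mb. CCAAT stood at 19.6% and 42.3% of summits in windows of 25 and 100 bp to either side, and GAGAGA at 20.8% and 50.6%, while the extended motif stayed within its interval (10.1% and 12.8%). Narrower arms (outer 25%) and wider ones held 43.3% and 65.6%. Another distal peak lay within 2 kb of 32.4% and within 10 kb of 53.3%. Any repeated 20-mer was present at 32.8%. Counting only the nearest gene of each pair, 9.21% of genes qualified. Leaving out a replicate meant taking the 6932 strongest regions of the other one in place of the IDR list. That gave 926 to 929 distal regions, 64.3 to 64.5 per Mb, CCAAT at 28.4% to 28.5%, the extended motif at 11.2% to 11.6%, GAGAGA at 32.6% to 33.5%, arms at 55.5% to 56.7% and repeated sequence at 1.18% to 1.30%, with the density and shares within the intervals of the IDR list. No paired analysis was possible because there was 1 group. The depth of the libraries is unknown, so no value carries an error from read counts, and no untagged library was analysed here.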
